A study of Mus musculus with 6 samples.

Results

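Vip-positive interneurons were defined here as GABAergic cells of mouse hippocampus that carried mRNA of vasoactive intestinal peptide (Vip) and of the lineage born in the caudal ganglionic eminence (CGE). A cell needed at least 500 detected genes, at least 1000 UMIs (unique molecular identifiers, each tagging a captured RNA molecule) and at most 15% mitochondrial UMIs. It also needed at least 2 UMIs of the GABA synthesis genes Gad1 and Gad2 together. Its summed UMIs of a CGE panel (Vip, Htr3a, Npas1, Adarb2) had to reach 4 and to exceed those of a somatostatin (SST) panel (Sst, Elfn1, Crhbp, Pappa) and of a parvalbumin (PV) panel (Pvalb, Btbd11, Tac1, Tll1), and at least 1 of them had to be a Vip UMI. The rule selected 209 cells of the 3505 that passed the Gad gate and of 44736 kept in all. The cells were thus selected on the measured UMIs of these 14 genes, so the levels of those genes are given as description, with no test result. The tests between classes left these genes out. In the other tests, those that met the count filter stayed among the genes tested.

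The series profiled single cells of the hippocampus of mice at 6 months in 3 groups of 2 samples each. 5xFAD mice, a model of amyloid plaques whose transgenes are driven by the neuronal Thy1 promoter, had received either PBS (5xFAD_PBS) or Aβ3FTnAu (5xFAD_Ab3FTnAu), a protein and gold nanostructure directed at amyloid plaques. Wild-type littermates had received PBS (WT_PBS). No label ties a sample to an animal or gives the number of animals it held, so the p-values measure the spread between these samples, which may be technical. A lower level of an mRNA can come from fewer cells with it or from less of it per cell, and in summed counts these cannot be told apart.

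Vip interneurons are a minority class of inhibitory neurons that release GABA together with peptides. Many of them contact other interneurons, above all somatostatin cells, so that their firing releases pyramidal cells from inhibition, while a basket cell subset that also makes cholecystokinin (Cck) contacts pyramidal cell bodies and carries the cannabinoid receptor Cnr1. VIP acts through the receptors Vipr1 and Vipr2, which raise cyclic AMP, and transcription of Vip itself is known to respond to cyclic AMP through the factor CREB.

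The Vip and Tac2 promoters are shown because Vip is the gene that picked these cells and Tac2, which encodes the tachykinin neurokinin B, was the gene with the largest difference between them and the SST and PV panel cells among those compared with all 3 other classes below. Both sequences are from RefSeq on GRCm38.p6, run 5′ to 3′ on the sense strand and span 250 bases before to 50 bases after the start of transcription, chr10:5638968-5639267 for Vip and chr10:127724228-127724527 for Tac2. Capitals mark TGACGT, the core letters of a cyclic AMP response element, which was the only motif searched, on both strands.
Vip: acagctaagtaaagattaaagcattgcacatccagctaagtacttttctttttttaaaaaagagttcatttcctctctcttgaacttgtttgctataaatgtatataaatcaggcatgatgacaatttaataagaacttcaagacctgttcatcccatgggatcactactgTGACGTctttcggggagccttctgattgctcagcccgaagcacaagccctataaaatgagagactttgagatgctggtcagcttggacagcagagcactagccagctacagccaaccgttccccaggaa
Tac2: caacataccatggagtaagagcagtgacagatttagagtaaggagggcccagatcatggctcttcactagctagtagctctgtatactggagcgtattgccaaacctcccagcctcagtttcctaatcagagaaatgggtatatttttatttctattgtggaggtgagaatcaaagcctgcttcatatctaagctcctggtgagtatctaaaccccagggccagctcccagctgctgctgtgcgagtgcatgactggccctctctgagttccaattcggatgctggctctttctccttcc
The Vip promoter held TGACGT once, 79 bases before the start, and the Tac2 window did not hold these letters. Among 32851 mouse promoters of the same length, 2468 (7.51%) held the motif on either strand.

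The 6 libraries held 32528417 to 76780861 UMIs over 5196 to 14993 barcodes, and the Vip-positive cells of a sample summed to 93846 to 860098 UMIs. Their depth was uneven, since 17 of the 209 cells had over 20000 UMIs and held 0% and 27.9% of the summed UMIs in 5xFAD_PBS 1 and 2, 17.2% and 79.3% in 5xFAD_Ab3FTnAu 1 and 2, and 48.7% and 54.3% in WT_PBS 1 and 2. Vip-positive cells without a mitochondrial UMI made up 25% and 9.09% in 5xFAD_PBS, 72.7% and 48.7% in 5xFAD_Ab3FTnAu and 47.2% and 25.8% in WT_PBS, against 17.4% to 65.9% of all kept cells of a library. The deepest Vip-positive cell of a sample held 13.1% (5xFAD_PBS 1) to 45.6% (WT_PBS 2) of its summed UMIs. The highest Vip count among cells over 20000 UMIs was 1 in 5xFAD_PBS 2 and 2 and 4 in 5xFAD_Ab3FTnAu 1 and 2. It was 15 and 7 in WT_PBS 1 and 2. Sums per sample thus lean on a few deep cells, most of all in 5xFAD_Ab3FTnAu 2. Doublets were left in, and 21 of the 209 cells fell among the 3080 cells that a doublet score ranked highest. Pairs of libraries shared 9 to 45 cell barcodes. Replicate samples differed by more than sampling noise in every group, with chi-square per degree of freedom between 7.77 and 89.3.

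Vip, at chr10:5639218-5647617 on the plus strand, was carried very unevenly by the selected cells. Of the 209 cells, 70 held 1 Vip UMI, 56 held 2 to 5 and 83 held 6 or more, and those 83 cells held 1711 of the 1947 Vip UMIs. The median number of Vip UMIs per cell was 6.5 and 4 in 5xFAD_PBS 1 and 2, 2 and 2 in 5xFAD_Ab3FTnAu 1 and 2, and 6 and 6 in WT_PBS 1 and 2, and the richest cell of each sample held 62, 77, 24, 15, 85 and 77 in the same order. The medians of both treated samples lay below those of the other 4 samples. At the edge of the rule, 3 selected cells had a CGE panel sum of 4 and 5 cells with a Vip UMI missed it with a sum of 3.

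**Figure D1:**
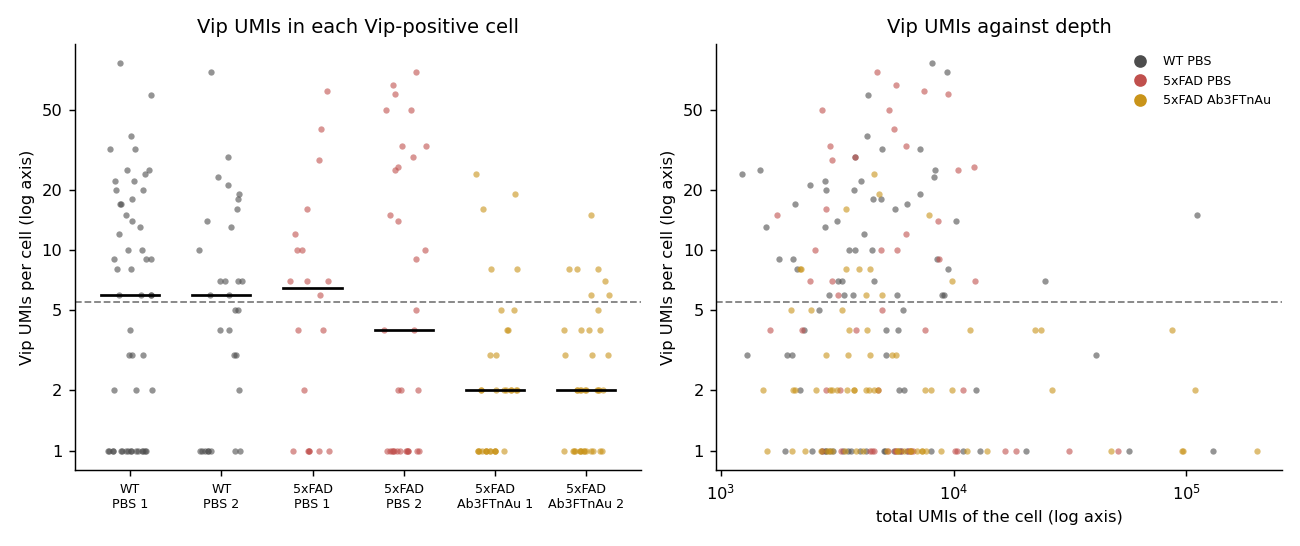
Vip UMIs in each Vip-positive cell, by sample on the left with the median as a bar and on the right against the cell's total UMIs (both log axes). The dashed line separates cells with 6 or more Vip UMIs, which were 83 of 209 and numbered 5 and 7 in the treated samples against 11 to 30 in the others.

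A low Vip count is also what free RNA in the droplets gives. Of all 1618 cells that met the CGE panel rule, 209 (12.9%, exact Clopper-Pearson 95% interval 11.3% to 14.6%) had a Vip UMI, against 19 of 517 PV panel cells (3.68%), 14 of 548 SST panel cells (2.55%) and 1495 of 37896 cells without a Gad UMI (3.95%). With each cell thinned to 1000 UMIs the shares were 7.29% in the CGE panel, 0.730% in the SST panel and 1.46% in cells without a Gad UMI, and 0 of 517 PV panel cells kept a Vip UMI, which allows a share of up to 0.580% at 3 counts of 517 and of 0.711% by the exact interval. A low count of Vip was thus also met in other interneurons. Vip UMIs add to the CGE panel sum, so a cell with many of them is placed in the CGE panel by the rule, and the shares of the panels are descriptions. Intervals and limits cover counting error only.

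The Gad gate left out many cells with abundant Vip. Of 266 kept cells with 6 or more Vip UMIs, 183 were not selected, 98 of them with no Gad UMI and 85 with 1, and none with 2 or more. Summed over cells and given as counts per 1000000 UMIs (CPM), Adarb2, an RNA-editing family gene that marks the CGE lineage, stood at 12381 in the selected cells with 6 or more Vip UMIs, at 10606 in the cells without a Gad UMI and at 11122 in those with 1. Synpr, a synaptic vesicle protein, stood at 1467, 1388 and 1440 CPM, and Cnr1 at 648, 564 and 725 CPM in the same order. A list of excitatory neuron markers summed to 618, 631 and 679 CPM. On these genes the pooled cells outside the gate were close to those inside it. Tac2 stood at 142, 240 and 181 CPM, Penk at 121, 199 and 138, and Cck at 451, 318 and 485. WT_PBS 1 alone held 55 of the 98 cells and 40 of the 85, and single samples could differ more. In 5xFAD_PBS 2, Adarb2 stood at 15754, 6952 and 11392 CPM and Cnr1 at 825, 290 and 1052. The 209 cells thus leave out many cells with abundant Vip.

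Genes known from the class or its lineage that the rule did not use were then looked up in the cells. Detection in other classes is not set beside them. Prox1, Cnr1 and Cck did not differ detectably from CGE panel cells without Vip (below), so their shares do not separate the cells from that class. The neuregulin receptor Erbb4 had a UMI in 202 of the 209 cells, Synpr in 184, Cnr1 in 159 (76.1%), the CGE transcription factor Prox1 in 110 and Cck in 110 (52.6%). Tac2 had a UMI in 40 cells, the enkephalin precursor Penk in 42, calretinin (Calb2) in 19, corticotropin-releasing hormone (Crh) in 17 and the bombesin-family receptor Grpr in 28. Genes typical of other neuron classes had UMIs too, Reln in 56 cells, Slc17a7 in 51 (24.4%), Sst, an SST panel gene, in 32, Npy in 24 and Lamp5 in 23. Choline acetyltransferase (Chat) appeared in 3 cells, and the vesicular acetylcholine transporter Slc18a3 and the Cck basket cell marker Sncg in 0 of 209, which allows a share of up to 1.44% of cells with a captured UMI and does not limit the share that express them. Of the receptors, Vipr1 had a UMI in 17 cells, Vipr2 in 1 and the related PACAP receptor Adcyap1r1 in 55. Of the rule's own genes, Adarb2 had a UMI in 208 cells, Npas1 in 74 and the serotonin receptor subunit Htr3a in 37, which the selection itself favours. Adarb2 made up 98.2% to 99.4% of the panel's UMIs other than Vip in each sample, so membership rested almost wholly on Adarb2 and Vip.

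Cells with abundant Vip and cells with a single Vip UMI differed in the marker genes that were detected in them. Cnr1 had a UMI in 75 of the 83 cells with 6 or more Vip UMIs (90.4%) and in 41 of the 70 cells with 1 (58.6%). Lamp5, which marks a neighbouring neurogliaform class of the same lineage, showed the opposite order, with 3 of 83 (3.61%) and 17 of 70 (24.3%). Penk was in 23 and 6 of these cells, Tac2 in 20 and 10, and neuropeptide Y (Npy) in 5 and 15. Lhx6, a factor of the medial lineage that makes SST and PV cells, was in 0 and 5. Among the 83 cells, Penk had a UMI in 9 of the 47 with Cck (19.1%) and in 38.9% of those without, although the cells with Cck were the deeper ones (median 4863 against 3781.5 UMIs). The 70 cells with 1 Vip UMI summed to 1084797 UMIs and the 83 cells to 543401. The median depth of the former was the higher in each sample except 5xFAD_Ab3FTnAu 1 (4069 against 4383 UMIs). The part of depth in these shares was not tested. Since the cells were split by Vip UMIs, these shares are descriptions.

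Markers of other cell types were summed by list in the Vip-positive cells. The excitatory list summed to 437 to 1023 CPM in the Vip-positive cells of a sample, against 1121 to 1440 CPM in cells without a Gad UMI. It stood at 437 and 524 CPM in 5xFAD_PBS, 620 and 1023 in 5xFAD_Ab3FTnAu and 958 and 629 in WT_PBS, lowest in 5xFAD_PBS. The Lamp5 list summed to 117 to 534 CPM against 518 to 975 CPM in CGE panel cells without Vip. Oligodendrocyte precursor markers reached at most 14.1 CPM and vascular markers at most 23.3 CPM. The oligodendrocyte list summed to 128 and 94.7 CPM in 5xFAD_PBS, 124 and 748 in 5xFAD_Ab3FTnAu and 367 and 355 in WT_PBS, so 5xFAD_Ab3FTnAu 2 carried the most.

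Next, the UMIs of the Vip-positive cells of each sample were summed and set against those of the SST panel cells (548), the PV panel cells (517) and the CGE panel cells without Vip (1409) of the same samples. Of 9703 genes tested with edgeR's quasi-likelihood test, 1958 passed an adjusted p of 0.05 against the SST panel (20.2%), 2800 against the PV panel (28.9%) and 137 against the CGE cells without Vip (1.41%). Vip-positive cells had 32 genes higher than all 3 other classes (0.330% of those tested) and 17 lower than all 3 (0.175%). In cells of at most 20000 UMIs these numbers were 109 and 69, and in cells with 6 or more Vip UMIs 104 and 109, with 12 of the 12 higher named genes called in each. In cells without a mitochondrial UMI they were 30 and 11, and in cells thinned to 1000 UMIs 44 and 21, with 4 of the 12 higher and 6 of the 12 lower named genes called in each. Tac2, Penk, Fbln2 and Adra1b had too few counts to be tested in these last 2 sets. Without WT_PBS 1 the numbers were 21 and 7 and without WT_PBS 2 they were 24 and 10, while 11 of the 12 higher and 7 of the 12 lower named genes were still called in each. With the cells of highest doublet score removed they were 35 and 7, with 12 of the 12 higher but 5 of the 12 lower named genes called. Npy, Nxph1 and Unc5d were among those no longer called in all 3 comparisons.

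**Figure D2:**
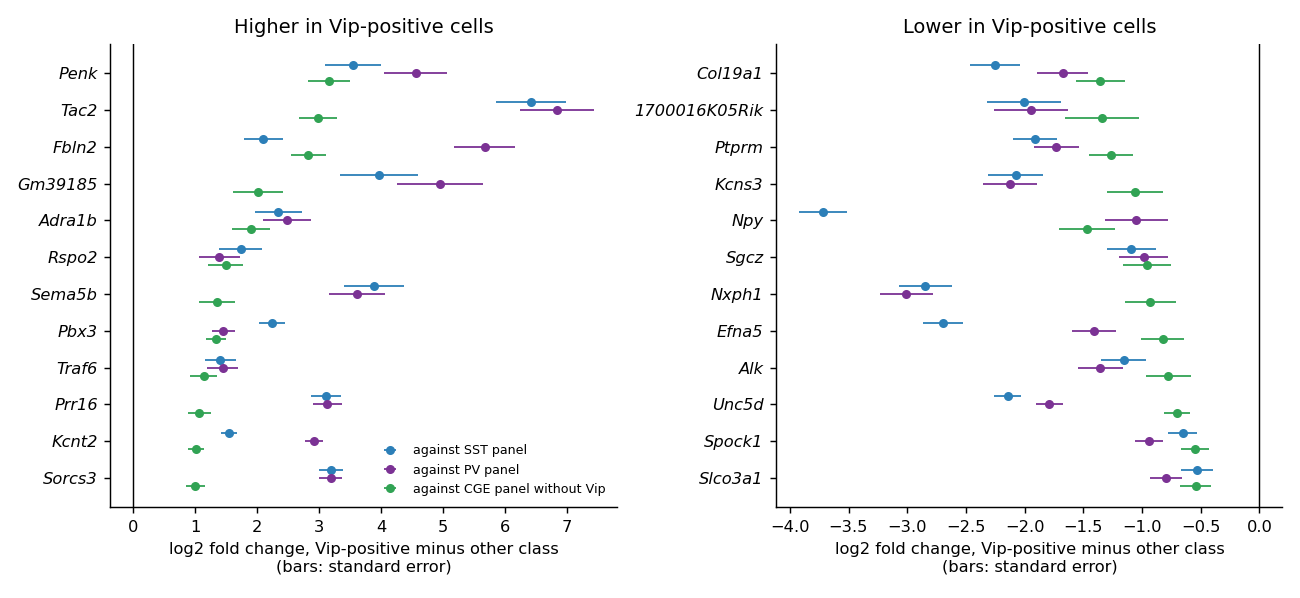
Log2 fold change of Vip-positive cells against SST panel, PV panel and Vip-negative CGE panel cells, with its standard error, for the 12 genes higher and the 12 lower in all 3 comparisons with the largest smallest difference. Tac2 has the largest differences from SST and PV panel cells (6.42 and 6.83) and Penk the largest from the CGE cells without Vip (3.16), while Npy and Nxph1 are among the lower genes.

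Among the peptide genes other than Vip, Tac2 and Penk were higher than in all 3 other classes and Npy was lower. Tac2, at chr10:127724478-127731768, averaged 83.2 ± 82.1 CPM in Vip-positive cells (SD, n = 6 samples, 16.3 to 234) against 0.497 CPM in SST panel, 0.641 in PV panel and 8.56 in CGE cells without Vip. All SST and PV panel cells together held 3 and 2 Tac2 UMIs. Against the CGE cells without Vip the log2 fold change was 2.98 ± 0.30 (SE, edgeR adjusted p = 1.83e-07). Penk, at chr4:4133531-4138819, averaged 55.2 ± 55.0 CPM against 5.07, 1.62 and 5.13 CPM in the 3 other classes, with log2 fold changes of 3.54 ± 0.44, 4.56 ± 0.51 and 3.16 ± 0.34. Cck, at chr9:121489824-121495694, averaged 274 ± 209 CPM and was higher than in SST and PV panel cells (1.72 ± 0.24 and 1.57 ± 0.24), but against the CGE cells without Vip the value of 0.60 ± 0.20 did not pass (edgeR adjusted p = 0.210). Npy, at chr6:49822710-49829507 and typical of SST and neurogliaform cells, was lower than in all 3 classes, by log2 fold changes of -3.71 ± 0.21, -1.05 ± 0.27 and -1.47 ± 0.24. The value against PV was -0.41 in cells thinned to 1000 UMIs (edgeR adjusted p = 0.668) and 0.14 in cells without a mitochondrial UMI (edgeR adjusted p = 0.892), and that against the CGE cells without Vip was -0.87 in the latter (edgeR adjusted p = 0.340). Reelin (Reln), a secreted glycoprotein of SST and neurogliaform cells, lay between the classes, at -2.38 against SST, 1.75 against PV and -1.30 against the CGE cells without Vip. Of the 14 genes of peptides and their processing enzymes tested, 4 were higher and 5 lower against SST, 4 and 3 against PV, and 3 and 1 against the CGE cells without Vip. These counts stand beside 20.2%, 28.9% and 1.41% of all genes tested that were called in either direction.

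Among the transcription factors, several of the CGE lineage were higher than in SST and PV panel cells. Prox1, at chr1:190118035-190170714, averaged 170 ± 50.9 CPM against 8.73 in SST and 12.8 in PV panel cells (log2 fold changes 4.10 ± 0.31 and 3.77 ± 0.29), and against 106 CPM in the CGE cells without Vip the difference did not pass (0.60, edgeR adjusted p = 0.109). Sox6 and Satb1, factors of the medial lineage, were lower by -3.84 and -2.88 against SST and by -4.17 and -2.51 against PV. Of 4 tested factors of that lineage, 1 was higher and 3 lower against SST, 0 and 4 against PV, and 1 and 0 against the CGE cells without Vip. Nfib was higher than in both (2.55 and 1.46). Of 17 tested factors of the CGE and GABA lineages, 7 were higher and 4 lower against SST, 9 and 5 against PV, and none passed against the CGE cells without Vip. Of all genes tested, 20.2%, 28.9% and 1.41% were called in either direction in these 3 comparisons. Pbx3, a homeodomain factor at chr2:34171457-34373142, did separate the Vip-positive cells from all 3 classes, with 152 ± 56.3 CPM against 27.6, 50.6 and 59.1 CPM and 1.33 ± 0.17 against the CGE cells without Vip (edgeR adjusted p = 6.34e-06).

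Receptor genes gave several of the differences within the CGE lineage. Grm8, a metabotropic glutamate receptor of presynaptic terminals at chr6:27275119-28135178, averaged 452 ± 281 CPM against 108 CPM in the CGE cells without Vip (1.81 ± 0.25) and did not differ detectably from SST cells (0.27 ± 0.25, edgeR adjusted p = 0.522). Grpr, at chrX:163513904-163549677, averaged 23.3 ± 10.9 CPM against 2.96 CPM (2.66 ± 0.48, edgeR adjusted p = 0.000843). The adrenergic receptor gene Adra1b averaged 53.1 ± 34.6 CPM and was higher than in all 3 classes (2.34, 2.48 and 1.90). Cnr1, at chr4:33924593-33948831, averaged 410 ± 269 CPM against 46.8 in SST and 16.2 in PV panel cells (2.91 ± 0.22 and 4.37 ± 0.25) and 321 CPM in the CGE cells without Vip (0.18, edgeR adjusted p = 0.863). The opioid receptor Oprd1 was lower than in SST and PV cells (-3.08 and -3.96). The serotonin receptor Htr2a was lower than in all 3 classes (-1.94, -2.01 and -1.48), on few counts. It had 0 and 3 UMIs in the Vip-positive cells of 5xFAD_PBS, 0 and 9 in 5xFAD_Ab3FTnAu and 2 and 3 in WT_PBS. Among 26 glutamate receptor genes, 5 were higher and 13 lower against SST, 12 and 8 against PV, and 3 and 0 against the CGE cells without Vip. The AMPA receptor subunit Gria4 was lower against both SST and PV (-1.59 and -1.90), and the NMDA receptor subunit Grin3a lower against SST (-2.42) and higher against PV (0.51). Among 15 GABA receptor genes the counts were 8 and 2, 4 and 6, and 0 and 0, with Gabrb1 higher against SST and PV (1.03 and 1.21) and Gabra3 lower (-1.43 and -1.15). The shares called over all genes tested, in either direction, were 20.2%, 28.9% and 1.41%.

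Channel and adhesion genes had more calls against SST and PV than against the CGE cells without Vip, as all genes tested did (20.2%, 28.9% and 1.41%). The sodium-activated potassium channel gene Kcnt2 averaged 762 ± 237 CPM against 242, 91.2 and 359 CPM and was higher than in all 3 classes (1.54, 2.91 and 1.01 ± 0.12). Kcnip4, which modulates A-type potassium channels, was higher against SST and PV (2.46 and 1.84). The fast-spiking channel gene Kcnc1 was lower against PV (-1.92), and the calcium channel subunit gene Cacna2d2 was lower against both (-2.75 and -3.78). Of 30 potassium channel genes, 12 were higher and 7 lower against SST, 13 and 11 against PV, and 2 and 0 against the CGE cells without Vip. The sorting receptor gene Sorcs3, at chr19:48206025-48805505, averaged 625 ± 175 CPM against 62.4, 64.6 and 300 CPM (3.19, 3.18 and 0.996 ± 0.15). The neurexin partner Nxph1 and the netrin receptor Unc5d were lower than in all 3 classes, with -0.93 and -0.70 against the CGE cells without Vip. Neither was called in all 3 comparisons with the cells of highest doublet score removed, nor was Nxph1 without WT_PBS 1 or without WT_PBS 2. Of 31 adhesion genes, 10 were higher and 8 lower against SST, 8 and 12 against PV, and 2 and 1 against the CGE cells without Vip. The median over all genes tested was -0.03, -0.01 and -0.01 in the 3 comparisons.

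Calb2 is known to divide Vip interneurons, and the 19 cells with a Calb2 UMI were compared with the other Vip-positive cells of their samples. Of 1017 genes tested, 2 passed (0.197%), and 35 had an unadjusted p under 0.05. The collagen gene Col25a1 had 8 UMIs in the Calb2-positive cells and 928 in the others (66.6 against 455 CPM), a log2 fold change of -3.33 ± 0.56 (edgeR adjusted p = 0.0307). Nxph1 had 9 and 781 UMIs (74.9 against 383 CPM), -2.92 ± 0.55 (edgeR adjusted p = 0.0454). Neither passed without 5xFAD_PBS 2, 5xFAD_Ab3FTnAu 2, WT_PBS 1 or WT_PBS 2, and 1 gene passed without 5xFAD_Ab3FTnAu 1.

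The share of Vip-positive cells among Gad-gated cells is given for the 2 samples of each group as description. Membership rests on UMIs that the rule used, and 2 against 2 samples cannot pass a threshold of 0.05, so no test result is given. It was 7.94% (20 of 252) and 8.33% (33 of 396) in 5xFAD_PBS, 4.18% (33 of 789) and 5.72% (39 of 682) in 5xFAD_Ab3FTnAu and 5.35% (53 of 990) and 7.83% (31 of 396) in WT_PBS. The group means were 8.13% ± 0.281, 4.95% ± 1.09 and 6.59% ± 1.75 (SD, n = 2). The treated samples lay below both 5xFAD_PBS samples (difference -3.18 percentage points) and overlapped the WT_PBS samples (-1.64). The 5xFAD_PBS samples lay above both WT_PBS samples (1.54).

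Vip-positive cells with 6 or more Vip UMIs made up a smaller share of the Gad-gated cells in both treated samples. Their share was 4.37% and 3.54% in 5xFAD_PBS, 0.634% (5 of 789, exact 95% interval 0.206% to 1.47%) and 1.03% (7 of 682, 0.414% to 2.10%) in 5xFAD_Ab3FTnAu, and 3.03% and 4.04% in WT_PBS. The treated samples lay below the other 4, with differences of -3.12 percentage points from 5xFAD_PBS and -2.71 from WT_PBS. These shares rest on Vip UMIs, which the rule used, and are given without a test. With no Gad gate, cells with 6 or more Vip UMIs made up 0.477% and 0.510% of all kept cells in 5xFAD_PBS, 0.274% and 0.447% in 5xFAD_Ab3FTnAu and 0.916% and 0.582% in WT_PBS. The treated samples were again lowest, with a difference of -0.133 percentage points from 5xFAD_PBS, and 5xFAD_PBS now lay below WT_PBS. Split by mitochondrial UMIs, the treated and 5xFAD_PBS samples overlapped. Of cells with 1 or more, the shares were 0.508% and 0.571% in 5xFAD_PBS, 0.549% and 0.481% in 5xFAD_Ab3FTnAu and 0.807% and 0.549% in WT_PBS. Of cells with none, they were 0.369% and 0.220%, 0.131% and 0.428%, and 1.001% and 0.664% in the same order. As a share of all kept cells, the 209 cells even ran the other way, at 0.415% and 0.421% in 5xFAD_PBS, 0.475% and 0.670% in 5xFAD_Ab3FTnAu and 0.389% and 0.547% in WT_PBS. The Gad-gated cells themselves were 789 and 682 in the treated samples against 252 and 396 in 5xFAD_PBS, and the part of this in the shares was not tested.

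**Figure D3:**
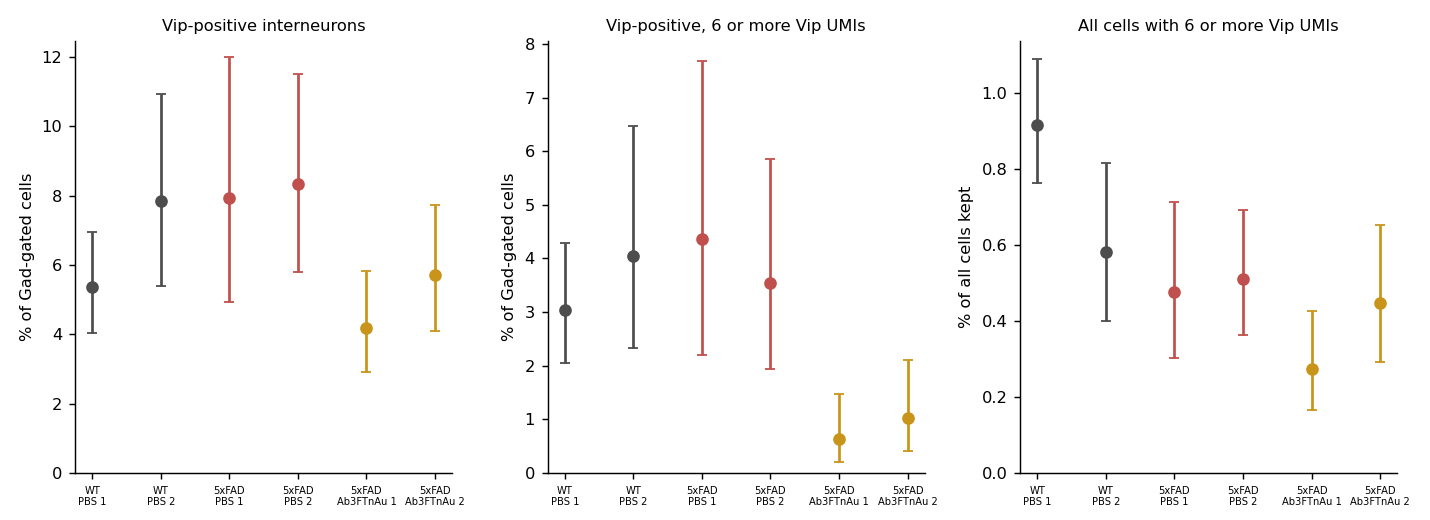
Share of Vip-positive interneurons, of those with 6 or more Vip UMIs (both as a percentage of Gad-gated cells) and of all cells with 6 or more Vip UMIs (as a percentage of all cells kept), per sample with exact 95% binomial intervals. The treated samples are lowest in the middle panel at 0.634% and 1.03%, while their separation from the other samples is smaller in the right panel.

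Gene levels in Vip-positive cells were then compared between the groups on the summed counts of the 6 samples. None of 5628 genes passed an adjusted p of 0.05 in 5xFAD_PBS against WT_PBS (0%), in 5xFAD_Ab3FTnAu against 5xFAD_PBS (0%) or in 5xFAD_Ab3FTnAu against WT_PBS (0%) with edgeR. At an unadjusted p under 0.05 there were 212 (3.77%), 455 (8.08%) and 549 (9.75%) genes, and DESeq2 also called 0 in each. Without 5xFAD_Ab3FTnAu 1, 134 genes passed against 5xFAD_PBS and 146 against WT_PBS, and without WT_PBS 2, 175 passed in the latter. In these fits the remaining sample of the group is assumed to vary like the others. The 3 comparisons share samples, so their values are set side by side and not counted as agreeing. All log2 fold changes named below for the groups missed the threshold and are given as values.

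The rule genes are described first. Vip stood at 2355 and 1789.7 CPM in 5xFAD_PBS, 849 and 142 in 5xFAD_Ab3FTnAu and 1337 and 1104 in WT_PBS, so the treated samples lay below the other 4. Leaving out the cells over 20000 UMIs, it stood at 2355 and 2471, 1009 and 585, and 2525 and 2356 CPM, with the treated samples again lowest. In all CGE panel cells, with or without a Vip UMI, it was 146 and 356, 44.7 and 22.9, and 131 and 206 CPM. In CGE panel cells without a mitochondrial UMI it was 182 and 473, 72.7 and 72.3, and 276 and 396 CPM, and in those with 1 or more 142 and 340, 30.6 and 12.3, and 84.5 and 174 CPM. The treated samples were lowest in each of these sets, but not in the Vip-positive cells with 1 or more mitochondrial UMIs, which stood at 2837 and 1609 CPM in 5xFAD_PBS, 1454 and 70.7 in 5xFAD_Ab3FTnAu and 871 and 915 in WT_PBS, where the treated range spanned WT_PBS. Htr3a stood at 63.9 and 44.0, 19.6 and 6.98, and 25.4 and 10.5 CPM, with the treated range overlapping WT_PBS.

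**Figure D4:**
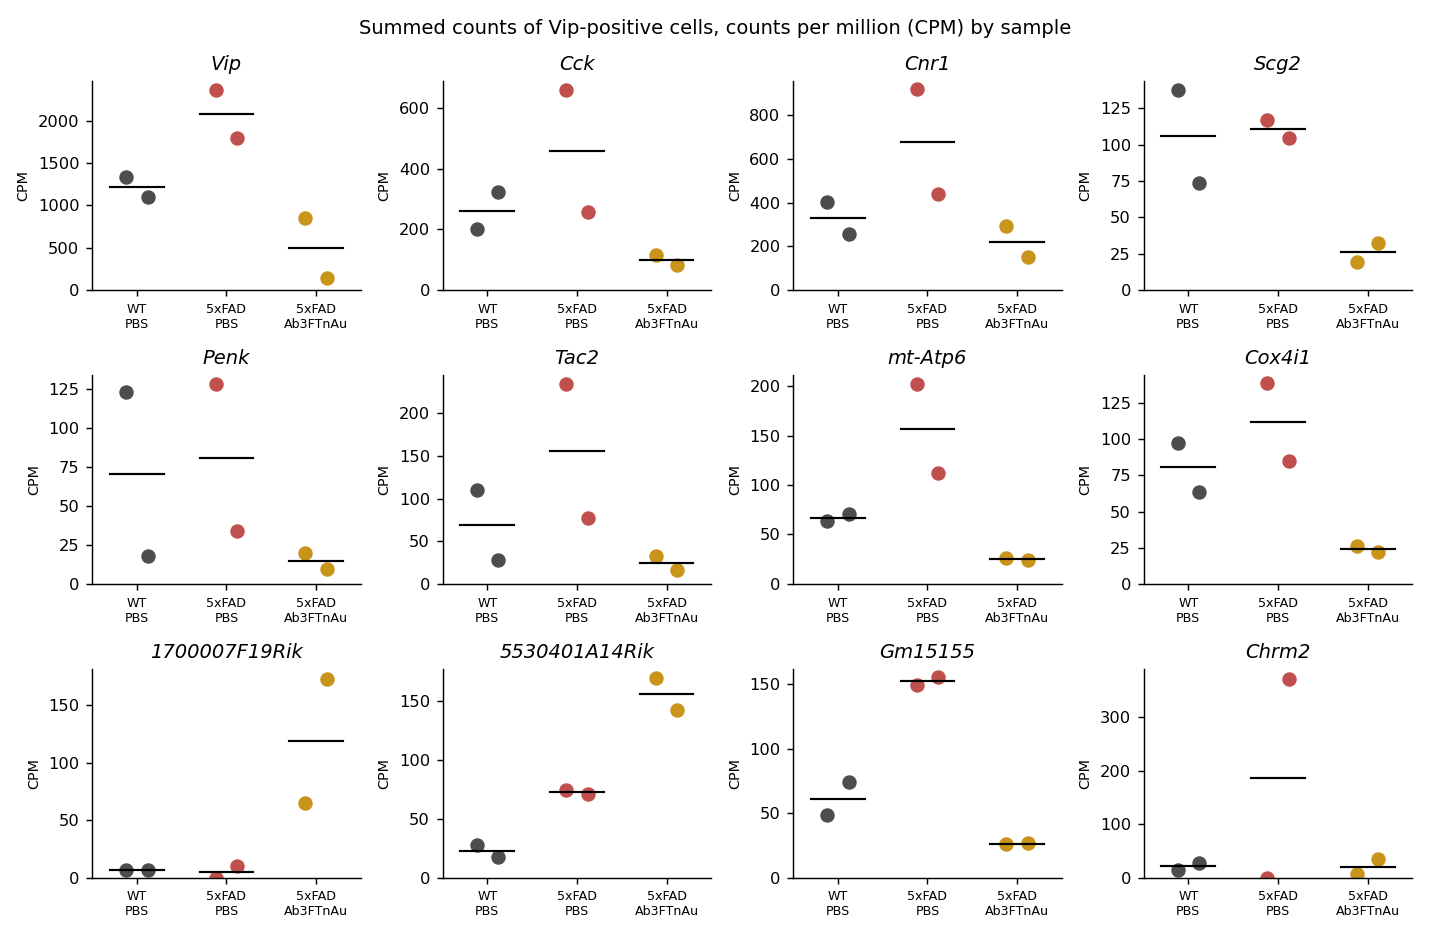
CPM of 12 genes in the summed counts of Vip-positive cells, a point per sample and a bar at the mean of each group. Cck, mt-Atp6 and Gm15155 are lower in both treated samples than in the other 4, whereas 1700007F19Rik and 5530401A14Rik are higher, and no gene passed the adjusted threshold.

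In 5xFAD_PBS against WT_PBS the smallest adjusted p was 0.974. Kctd8, an auxiliary subunit of GABA-B receptors, stood at 63.9 and 186 CPM in 5xFAD_PBS and 29.7 and 24.6 in WT_PBS (log2 fold change 2.32 ± 0.50), and Gprasp2 at 95.9 and 77.8 against 23.3 and 7.03 CPM (2.30 ± 0.57). The calcium channel subunit gene Cacna2d1 stood lower, at 234 and 453 against 757 and 995 CPM (-1.32 ± 0.37). The samples of the 2 groups did not overlap for these genes. Cck and Cnr1 had positive values of 0.72 ± 0.44 and 0.97 ± 0.44. Etv1, an ETS-family factor, had 0 and 2 UMIs in 5xFAD_PBS and 29 and 12 in WT_PBS, and Crym, a thyroid hormone binding protein, 0 and 1 against 18 and 10, too few for a fold change. Mitochondrially encoded genes had positive values in 7 of 7 (median 1.24, 4 with unadjusted p under 0.05) and genes of peptides and their processing enzymes, rule genes left out, in 6 of 10 (median 0.23), beside a median of -0.02 over all genes. Vip-positive cells without a mitochondrial UMI made up 25% and 9.09% in 5xFAD_PBS against 47.2% and 25.8% in WT_PBS. The part of this in the mitochondrial values was not tested.

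In 5xFAD_Ab3FTnAu against 5xFAD_PBS, genes of several lists had mostly negative values. None of 10 genes of peptides and their processing enzymes, rule genes left out, had a positive value (median -1.16, 4 with unadjusted p under 0.05), beside a median of 0.02 over all genes, of which 2902 of 5628 were positive. Cck stood at 661 and 257 CPM in 5xFAD_PBS, 117 and 83.7 in 5xFAD_Ab3FTnAu and 201 and 323 in WT_PBS, a log2 fold change of -2.16 ± 0.48 (edgeR adjusted p = 0.309). Scg2, a granin of dense-core vesicles, stood at 117 and 105, 19.6 and 32.6, and 138 and 73.8 CPM (-1.87 ± 0.45, edgeR adjusted p = 0.377). Tac2 stood at 234 and 77.8, 32.6 and 16.3, and 110 and 28.1 CPM (-2.72 ± 0.72, edgeR adjusted p = 0.415), with the treated samples overlapping WT_PBS. Penk stood at 128 and 33.8, 19.6 and 9.30, and 123 and 17.6 CPM, also overlapping WT_PBS. For Cck the value was -1.10 without the cells over 20000 UMIs, -0.54 in cells with 6 or more Vip UMIs and 0.19 in cells without a mitochondrial UMI. Cnr1 stood at 916 and 440, 294 and 150, and 403 and 257 CPM (-1.62 ± 0.46), with the treated samples overlapping WT_PBS, and its value was -0.74, 0.03 and 0.54 in the same 3 subsets. The values of Cck and Cnr1 thus depended on which Vip-positive cells were summed.

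The 7 mitochondrially encoded genes tested were all negative in this comparison (median -2.32, each with unadjusted p under 0.05). The ATP synthase subunit gene mt-Atp6 stood at 202 and 112 CPM in 5xFAD_PBS, 26.1 and 24.4 in 5xFAD_Ab3FTnAu and 63.6 and 70.3 in WT_PBS (-2.52 ± 0.44, edgeR adjusted p = 0.118), and the cytochrome oxidase subunit gene mt-Co2 had -2.32 ± 0.43 (edgeR adjusted p = 0.137). The nuclear gene Cox4i1, of the same complex, stood at 139 and 84.6, 26.1 and 22.1, and 97.5 and 63.3 CPM (-2.14 ± 0.46, edgeR adjusted p = 0.290). Nuclear respiratory genes were positive in 1 of 13 (median -0.58) and ribosomal protein genes in 3 of 20 (median -1.21). Endoplasmic reticulum chaperone genes were positive in 1 of 10 (median -0.78, 4 with unadjusted p under 0.05), with -1.69 for Hsp90b1, -1.47 for Canx and -1.53 for Calr. The vesicular GABA transporter gene Slc32a1 had -2.34 and the synaptic vesicle gene Syp -1.71. GABA receptor genes were positive in 7 of 13 (median 0.07). The shares of Vip-positive cells without a mitochondrial UMI, 72.7% and 48.7% in the treated samples against 25% and 9.09%, and the excitatory markers, 620 and 1023 against 437 and 524 CPM, moved with these values, and their part in them was not tested. The oligodendrocyte markers, at 124 and 748 CPM against 128 and 94.7, were high in 5xFAD_Ab3FTnAu 2 alone of these 4 samples.

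Beside mt-Atp6, the genes of smallest p in this comparison included noncoding RNAs and a secreted protein. C1qtnf4, a secreted protein of the C1q and TNF family, stood at 330 and 254 CPM in 5xFAD_PBS, 58.7 and 49.99 in 5xFAD_Ab3FTnAu and 276 and 130 in WT_PBS (-2.42 ± 0.43, edgeR adjusted p = 0.118). Gm15155, at chrX:155624741-156345887, stood at 149 and 156, 26.1 and 26.7, and 48.7 and 73.8 CPM (-2.49 ± 0.40, edgeR adjusted p = 0.118). Gm37459, an antisense RNA, stood at 21.3 and 37.2 CPM in 5xFAD_PBS and 137 and 372 in 5xFAD_Ab3FTnAu (3.06 ± 0.54, edgeR adjusted p = 0.118). Its UMIs numbered 2 and 11 in 5xFAD_PBS, 21 and 320 in 5xFAD_Ab3FTnAu and 33 and 23 in WT_PBS. In 5xFAD_Ab3FTnAu 1, 1 cell held 14 of the 21. The long intergenic noncoding RNA 1700007F19Rik, at chr3:58141707-58163807, had 0 and 3 UMIs in 5xFAD_PBS, 10 and 149 in 5xFAD_Ab3FTnAu and 3 and 2 in WT_PBS, and the 10 UMIs of 5xFAD_Ab3FTnAu 1 came from 1 cell. The samples of these pairs of groups did not overlap.

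In 5xFAD_Ab3FTnAu against WT_PBS the smallest adjusted p was 0.0617. The gene 5530401A14Rik, at chr11:81860673-81894582, stood at 74.6 and 71.0 CPM in 5xFAD_PBS, 170 and 142 in 5xFAD_Ab3FTnAu and 27.6 and 17.6 in WT_PBS (2.68 ± 0.38), and 1700007F19Rik had the same adjusted p. Without the cells over 20000 UMIs, 5530401A14Rik had 2.74 and an edgeR adjusted p of 0.0390. C1qtnf4 had -1.96 ± 0.41 (edgeR adjusted p = 0.155), Scg2 -1.87 ± 0.42 (edgeR adjusted p = 0.166) and Cox4i1 -1.82 ± 0.43 (edgeR adjusted p = 0.181). The ubiquitin gene Ubb had -1.63 ± 0.38, Penk -2.68 ± 0.86 and Cck -1.44. The same peptide list was positive in 2 of 10 (median -1.13, 5 with unadjusted p under 0.05), nuclear respiratory genes in 3 of 13 (median -0.92) and mitochondrially encoded genes in 1 of 7 (median -1.08), beside a median of 0.00 over all genes. The shares of Vip-positive cells without a mitochondrial UMI were 72.7% and 48.7% here against 47.2% and 25.8% in WT_PBS, and their part was not tested.

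Whether a group difference in Vip-positive cells differed from that in the other panel interneurons of the same samples was tested over 12842 genes. In 5xFAD_PBS against WT_PBS 4 genes passed (0.0311%), in 5xFAD_Ab3FTnAu against 5xFAD_PBS 2 (0.0156%) and in 5xFAD_Ab3FTnAu against WT_PBS 1 (0.00779%), and DESeq2 called 0 in each. The muscarinic receptor gene Chrm2 was called in the first pair of comparisons, with differences of 3.29 and -2.69 on the log2 scale, and had 0 and 110 UMIs in the Vip-positive cells of 5xFAD_PBS 1 and 2, 1 and 30 in 5xFAD_Ab3FTnAu and 7 and 8 in WT_PBS. Of the 110 UMIs, 89 came from 1 cell of 5xFAD_PBS 2, and without that sample the differences turned to -7.81 and 8.46.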

How the data were processed

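Single-cell RNA of 6 hippocampal samples was captured with 10x 3′ chemistry, per the labels' protocols. The authors deposited raw UMI counts per gene and barcode, made with version 7.1.0 of Cell Ranger, per the file headers, on mm10 with Seurat 4.3.0.1 also named in the submitters' processing notes. Whether intronic reads were counted, and with which strand setting, is not stated in any label or header used here. From the counts, cells were filtered and classed as the text states, with Python 3.11.15, numpy 2.4.6, scipy 1.17.1, pandas 2.3.3 and scanpy 1.11.5 (Scrublet scores, the top 0.8% per 1000 cells of a library marked). The UMIs of a class in a sample were added up and the sums tested with edgeR 4.0.16 (R 4.3.3, limma 3.58.1), TMM factors, the default count filter and Benjamini-Hochberg adjustment at 0.05 over all genes tested. Group tests used 6 sums and group only. Class tests used 24 sums with the sample as a block, the Calb2 test 12 sums and the test of unequal responses 12 sums. DESeq2 1.42.0 was an alternative. CPM are counts per 1000000 UMIs of the summed cells. Shares of cells are given per sample as description.

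The members and the gene lists were chosen with earlier results of these data known. Genes named were those of smallest p per direction (up to 5) in the group comparisons, up to 12 per direction in all 3 class comparisons ordered by the smallest of the 3 changes with at least 50 CPM in the higher class, and up to 3 of smallest p of each list. Of the genes named for other reasons, those in the account of the receptors, factors and channels were picked from the lists after their values were seen. Gene positions are from GENCODE vM21 (GRCm38), matched by gene ID for 511 of 511 genes looked up. On simulated data with 200 changed genes, the group tests recovered 11%, 7% and 6% of 2-fold and 68.7%, 68.7% and 77.8% of 4-fold changes (5541, 5604 and 5513 genes; order: 5xFAD_PBS against WT_PBS, 5xFAD_Ab3FTnAu against 5xFAD_PBS, 5xFAD_Ab3FTnAu against WT_PBS). The class tests recovered 99%, 96% and 98% of 2-fold changes (9351 genes, in the order SST, PV, CGE without Vip). False calls numbered 1, 1 and 3 in the group tests and 11, 3 and 5 in the class tests. Every gene was simulated with 1 common dispersion (0.0637 for groups, 0.0129 for classes), and only abundant genes were changed. The recovery therefore does not cover scarce genes or genes that vary more between samples.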

Additional observations from a re-analysis of the deposited data

Results flagged for a closer look

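In 7 instances the difference between groups in Vip-positive cells was unequal to that in the other panel interneurons of the same samples (edgeR interaction test, 12 sums, adjusted over 12842 genes, 2 samples a group). DESeq2 called none of them.

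In 5xFAD_PBS against WT_PBS the muscarinic receptor gene Chrm2 gave a log2 difference of 3.29 (edgeR adjusted p = 2.08e-06) and the noncoding RNA 9330158H04Rik, which overlaps Chrm2 on the other strand, a fitted 9.26 (edgeR adjusted p = 0.0209). The latter had 0 and 0 UMIs in the Vip-positive cells of WT_PBS, so its fitted value measures no size and is no bound. In 5xFAD_PBS 2, 1 cell held 89 of the 110 Chrm2 UMIs (80.9%) and 11 of the 16 UMIs of 9330158H04Rik (68.8%). The Vip-positive cells of 5xFAD_PBS 1 held 0 UMIs of either gene. In 5xFAD_Ab3FTnAu against 5xFAD_PBS, Chrm2 gave -2.69 (edgeR adjusted p = 0.000167).

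Gm45321 and Gm2516, long intergenic noncoding RNAs at chr8:49818937-49949006 and chr8:50368112-50416088, gave 1.84 (edgeR adjusted p = 0.0209) and 1.79 (edgeR adjusted p = 0.0390) in 5xFAD_PBS against WT_PBS. Gm45321 stood at 661 and 507 CPM in Vip-positive cells of 5xFAD_PBS and 140 and 137 in WT_PBS, against 421 and 463 and 250 and 719 in the other interneurons. Gm2516 stood at 490 and 413 against 180 and 80.9 CPM in Vip-positive cells. Neither passed in cells of at most 20000 UMIs (edgeR adjusted p = 0.0960 and 0.298), in thinned cells (edgeR adjusted p = 0.430 and 0.764), or without 5xFAD_PBS 1 or WT_PBS 2.

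In 5xFAD_Ab3FTnAu against 5xFAD_PBS, Gm15155 gave -2.31 (edgeR adjusted p = 0.00166). Its level in the other interneurons was 61.8 to 85.0 CPM in all 6 samples. Of its UMIs in Vip-positive cells, 1 cell held 12 of 14 in 5xFAD_PBS 1 and 17 of 46 in 5xFAD_PBS 2. It did not pass without 5xFAD_Ab3FTnAu 2 (edgeR adjusted p = 0.424) or in thinned cells. In 5xFAD_Ab3FTnAu against WT_PBS, Gm32647, at chr7:94042691-94709171, gave 2.20 (edgeR adjusted p = 0.000456), and 1 cell of 5xFAD_Ab3FTnAu 1 held 59 of its 61 UMIs there (96.7%). It did not pass without 5xFAD_Ab3FTnAu 1, without WT_PBS 2, in thinned cells or in cells of at most 20000 UMIs.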

How the results depend on the processing

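The small numbers of cells, their uneven depth and 2 samples a group limit the comparisons between groups. With no count filter, 9, 57 and 124 genes passed in the 3 group comparisons (5xFAD_PBS against WT_PBS, then 5xFAD_Ab3FTnAu against either), with 324 against the CGE cells without Vip and 36 in the Calb2 split. Leaving out single samples gave 0 to 10, 0 to 134 and 0 to 175 calls in the group comparisons, the highest without 5xFAD_Ab3FTnAu 1, 5xFAD_Ab3FTnAu 1 and WT_PBS 2. It gave 1359 to 1985 against SST, 2054 to 2815 against PV, 87 to 161 against the CGE cells without Vip, and 0 to 2 in the Calb2 split. For the unequal responses it gave 1 to 110, 2 to 76 and 0 to 9, the first 2 maxima without 5xFAD_PBS 2. The share differences ranged over 0.307 to 2.78, -3.95 to -2.42 and -2.88 to -0.403 percentage points.

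In 5xFAD_Ab3FTnAu against 5xFAD_PBS, 3 genes passed in cells with at least 2 Vip UMIs, and 1 each in cells with few markers of other types, in cells thinned to 1000 UMIs, and in cells with 6 Vip UMIs and no Gad gate, a set with 1 call against WT_PBS too. In cells of at most 20000 UMIs, 5 passed against WT_PBS. Against the CGE cells without Vip, 210 passed in thinned cells, 557 in cells of at most 20000 UMIs and 741 in cells with 6 or more Vip UMIs. Against SST these were 394, 1125 and 849, and against PV 497 thinned and 1474 with 6 or more Vip UMIs. In cells without a mitochondrial UMI 465 passed against SST and 675 against PV. The unequal responses numbered 1, 0 and 0 in thinned cells, and in cells of at most 20000 UMIs 5, 4 and 0. DESeq2 gave 0, 0 and 0. These alternatives, other than no filter, at least 2 Vip UMIs, few other markers, no mitochondrial UMI, DESeq2 and single samples, were chosen after seeing the data. The causes were not tested, although the smaller sets hold fewer counts.

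Some values turned sign. Of all kept cells, the share differences came to -0.0501, 0.155 and 0.105 in the order of the comparisons above, and to -0.256 for cells with 6 Vip UMIs and no Gad gate in the first. In 5xFAD_PBS against WT_PBS, the cells without a mitochondrial UMI gave -0.35 for Tac2, -3.56 for 5530401A14Rik, -1.81 for Cck and -1.43 for Cnr1. Thinned cells gave -0.025 for Tac2, -0.53 for Cck and -0.28 for Cnr1, and Cck was -0.012 in cells of at most 20000 UMIs and -0.042 to 1.26 without single samples, lowest without 5xFAD_PBS 1. In 5xFAD_Ab3FTnAu against 5xFAD_PBS, Cck was 0.19 and Cnr1 0.54 in cells without a mitochondrial UMI, Cnr1 was 0.029 in cells with 6 or more Vip UMIs, and Neat1 ranged over -4.13 to 4.89 without single samples, lowest without 5xFAD_Ab3FTnAu 2. Against WT_PBS, cells with 6 or more Vip UMIs gave 0.56 for Tac2 (0.13 with no Gad gate) and 0.082 for mt-Co2. In the class comparisons, Adcyap1r1 was 0.047 against SST with 6 or more Vip UMIs and -0.042 to 0.325 against PV without single samples, lowest without WT_PBS 2, Npy was 0.14 against PV in cells without a mitochondrial UMI, and Calb1 was -0.32 against PV in cells of at most 20000 UMIs. The unequal response of Chrm2 ranged over -7.81 to 3.90 and -5.12 to 8.46 without single samples, turning without 5xFAD_PBS 2.

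The replicate numbers of the labels did not pair the samples (correlations of same-numbered deviations 0.193, -0.0517 and 0.0259), and with the replicate number as a block 0, 0 and 0 genes passed in the group comparisons. A Calb2 split at 2 UMIs was not run because 0 cells reached it.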

Other observations

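Activity-induced genes were measured in the class comparisons although the groups were not stimulated by design. Of 6 tested, 2 were higher in Vip-positive cells than in SST panel cells, 3 than in PV panel cells and none than in the CGE cells without Vip. Over all genes tested, 20.2%, 28.9% and 1.41% were called in either direction. Bdnf, the brain-derived neurotrophic factor gene, averaged 25.9 ± 17.6 CPM (SD, n = 6) against 6.60 in SST and 6.60 in PV panel cells, with log2 fold changes of 2.04 and 2.03, and against 29.4 CPM in the CGE cells without Vip. In WT_PBS 2 all 15 Bdnf UMIs came from 1 cell, and in 5xFAD_PBS 2 and 5xFAD_Ab3FTnAu 1 1 cell held 3 of 4 and 2 of 2. Jun gave 1.43 and 1.61 against SST and PV. Igf1, a growth factor gene known from Vip cells of the cortex, averaged 146 ± 104 CPM against 72.3, 7.2 and 76.3 CPM and passed the test against PV panel cells (3.66 ± 0.35) but not against SST (0.55) or the CGE cells without Vip (0.53).

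Genes of the neighbouring Lamp5 and neurogliaform class were compared within the lineage. Of 7 tested, 4 were lower and none higher in Vip-positive cells than in the CGE cells without Vip (median log2 fold change -1.30, beside -0.01 over all genes, of which 1.41% were called). Genes of amyloid and tau biology (the precursor App, secretases, relatives and Thy1) had positive values in 2 of 15 in 5xFAD_Ab3FTnAu against 5xFAD_PBS (median -0.50), none of which passed the test.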
